A study of Homo sapiens with 6 samples.

Results

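The clustered protocadherins are cell surface adhesion genes that lie in 3 neighbouring families, alpha (PCDHA), beta (PCDHB) and gamma (PCDHG), at chr5:140165876-140892548 of hg19. Their RNA was compared between control Hep3B cells and Hep3B cells labelled PELP1-KD. Members were taken by gene symbol and by exons on chromosome 5, which gave 57 of the 23228 genes in the deposited tables, 15 alpha, 19 beta and 23 gamma genes. Of these, 54 had enough reads to be tested, and PCDHB1, PCDHB19P and PCDHGB8P had not. On the deposited values 14 of the 54 were called higher and none lower, where 26.8% of all genes tested were higher and 26.8% lower. The 14 were 11 beta and 3 alpha genes, and no gamma gene was called. With the reads that gamma genes share taken off, 2 of 14 gamma genes tested rose and 1 fell. In that second fit 26.9% of all genes tested were higher and 26.8% lower. None of the 54 tested genes changed 2-fold on the deposited values.

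Hep3B is an established human line of hepatocellular carcinoma. The 3 control libraries came from Hep3B cells with a non-targeted shRNA, and the 3 others from Hep3B cells with an shRNA against PELP1, a scaffold protein of nuclear receptor signalling and ribosome assembly. Both shRNAs were delivered by lentivirus, the knockdown cells were a pool of clones that survived puromycin, and the sample titles name shRNA 1 although the protocol lists shRNA 1 and shRNA 2. The labels do not say whether the 3 libraries of a group came from separate cultures, so p-values measure the spread between libraries, which may be technical. The libraries held 26758363 to 34456542 reads on genes.

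PELP1 RNA was close to the control level in the libraries labelled PELP1-KD. PELP1 had 4893, 4914 and 5102 normalised reads in the controls against 4421, 4825 and 4840, so that the groups did not overlap. The difference was -0.08 on the log2 scale (SE 0.04, adjusted p = 0.101, edgeR quasi-likelihood test), the adjusted p was 0.0106 with the replicate number as a block, and it was 0.018 (log2 -0.10) without PELP1-KD replicate 3. The paper reports less PELP1 on Western blots of its knockdown Hep3B cells, which measure protein and not RNA. Since PELP1 RNA was close to control here, every direction below is between libraries as labelled. In RNA from many cells, a change in the number of cells that express a gene and a change in RNA per cell cannot be told apart.

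Each alpha and each gamma gene has its own large first exon, the variable exon. It encodes the cadherin repeats, the membrane span and a short stretch of the inside. This exon is spliced to a set of exons that all genes of the family share. The shared exons total 2866 bases in alpha and 2181 bases in gamma. A beta gene consists of its own exon alone. In neurons, where the families are best known, a cell uses a few of the promoters, and the proteins bind their own kind on neighbouring cells and so mark the cell surface. The choice of promoter is known to depend on CTCF and cohesin, which loop promoters to enhancers, and on repressors such as SMCHD1, SETDB1 and DNA methylation.

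The first shared exon is shown because the values of the 15 alpha genes and of 22 gamma genes, all but the pseudogene PCDHGB8P, hold the reads of the shared exons. It lies at chr5:140358534-140358592 for alpha and chr5:140874374-140874432 for gamma (hg19, plus strand, both coding). The capitals of the other sequences below mark a motif, and these exons are in lower case throughout.
alpha shared exon 1: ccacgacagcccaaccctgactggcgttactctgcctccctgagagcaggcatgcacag
gamma shared exon 1: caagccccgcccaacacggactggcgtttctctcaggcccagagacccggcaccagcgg
They have the same length, 59 bases, and were identical at 39 positions (66.1%), while the second shared exons, of 89 bases, were identical at 29 (32.6%).

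Promoters of the families are known for a conserved element with the core CGCT. Windows from 250 bases before to 50 after each annotated start were searched on both strands for CGCT and for 3 longer motifs, which contain it, can overlap each other and were chosen after the members' windows had been seen. The core was in 75.8% of the 22677 windows of all genes and in 14 of 15 alpha, 16 of 19 beta and 20 of 23 gamma windows. TGTCGCT was in 11 of 15 alpha windows (2.09% of all windows), TGGCGCT in 13 of 19 beta windows (4.71% of all) and CGCTGTT in 10 of 23 gamma windows (2.39% of all). The motif of a family was thus far more frequent in its own windows than in all windows, which is how it was picked. The 20 bases around the core are given for the members whose values the results turn on, with CGCT in capitals (hg19, plus strand).
PCDHA4, chr5:140186572-140186591: catgatgtCGCTctttacca
PCDHA8, chr5:140220723-140220742: catgatgtCGCTgtctacca
PCDHB3, chr5:140479985-140480004: catggtggCGCTgttgacta
PCDHB5, chr5:140514769-140514788: cctggtggCGCTgcaggcta
PCDHB14, chr5:140602843-140602862: catggtggCGCTacaggata
PCDHGB2, chr5:140739496-140739515: ctgagcgtCGCTgttggtca
PCDHGA10, chr5:140792506-140792525: ctgagcgcCGCTgttcacct
PCDHGB4, chr5:140767219-140767238: gagcttggCGCTccagatct
PCDHGB5, chr5:140777465-140777484: gagcttggCGCTccagatct
The 20 bases of PCDHGB4 and PCDHGB5 are the same. They hold TGGCGCT, the motif of the beta windows, and not CGCTGTT. A match describes these letters only, and binding was not measured.

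In the beta family, 11 of the 17 tested genes rose in the libraries labelled PELP1-KD and none fell. Over all 14537 genes tested, 26.8% were called higher and 26.8% lower at an adjusted p below 0.05. The median log2 fold change was 0.48 over the beta genes and 0.0044 over all genes. The 11 genes were PCDHB2, PCDHB3, PCDHB4, PCDHB5, PCDHB7, PCDHB8, PCDHB9, PCDHB10, PCDHB13, PCDHB14 and PCDHB16, and in these 11 all 3 libraries labelled PELP1-KD lay above all 3 controls, as they did in 29.6% of all genes tested. DESeq2 called 9 beta genes higher and none lower, where its background was 23.6% higher and 24.6% lower (48.2% in either direction). The replicate block called 12 higher, where 30.4% of all genes were called higher and 30.4% lower.

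PCDHB3 had the smallest p of all members. It had 753, 796 and 762 normalised reads in the controls and 1047, 1086 and 1032 under the PELP1-KD label, with no overlap (log2 fold change 0.45, SE 0.05, adjusted p = 7.04e-07). PCDHB5, its near neighbour in rank, had 694, 763 and 696 against 950, 1033 and 981 (0.46, SE 0.06, adjusted p = 1.93e-06). These genes took 21.8% ± 0.382 and 20.3% ± 0.164 (SD, n = 3) of all beta reads in the controls, against 22.3% ± 0.713 and 20.8% ± 0.589 under the PELP1-KD label. PCDHB2 had 600, 598 and 561 against 665, 709 and 716 normalised reads, a smaller rise of 0.25 (SE 0.06, adjusted p = 0.0025), and its share of beta reads was 16.6% ± 0.758 in the controls and 14.7% ± 0.227 in the other group.

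PCDHB14 showed the largest log2 fold change among the beta genes. Its normalised reads were 80.1, 110 and 97.3 in the controls against 174, 179 and 184 in the libraries labelled PELP1-KD, whose lowest value lay well above the highest control (0.90, SE 0.13, adjusted p = 6.08e-06). The farthest upstream CGCT core of its window lies 227 bases before its start in the deposited tables. That core lies 64 bases before its start in GENCODE release 44, which places the start 163 bases farther upstream. A nearer core lies 16 bases before the GENCODE start. The 87 bases up to the GENCODE start (chr5:140602828-140602914, hg19, plus strand) are shown with both CGCT cores in capitals, since this gene changed most among the beta genes.
PCDHB14 promoter: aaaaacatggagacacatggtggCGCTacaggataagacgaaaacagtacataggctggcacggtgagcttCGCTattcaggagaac
PCDHB8 rose with 309, 338 and 305 against 475, 451 and 482 normalised reads (0.57, SE 0.08, adjusted p = 2.87e-06), and PCDHB13 with 218, 279 and 229 against 356, 325 and 355 (0.51, SE 0.10, adjusted p = 0.000139). PCDHB16 rose least, from 383, 401 and 382 to 440, 437 and 459 (0.20, SE 0.07, adjusted p = 0.0241), and it was not called by DESeq2 (adjusted p = 0.0711) or without PELP1-KD replicate 3 (0.0659), control replicate 1 (0.0734) or control replicate 3 (0.0578). The 4 remaining genes called, PCDHB4, PCDHB7, PCDHB9 and PCDHB10, had fewer reads, with control means of at most 50.2 (PCDHB9). PCDHB4 rose from 32.4 ± 2.40 to 58.6 ± 8.12 normalised reads (0.85, SE 0.20, adjusted p = 0.00154). PCDHB7 rose from 18.3, 11.5 and 15.3 to 24.6, 22.2 and 29.3 (0.75, SE 0.29, adjusted p = 0.0391), which was not called by DESeq2 (0.124) or with no filter on low counts (0.0561), nor, among the libraries left out in turn, without PELP1-KD replicate 1 or 3 or control replicate 2 or 3 (adjusted p from 0.0677 to 0.15). PCDHB9 and PCDHB10 rose by 0.58 (adjusted p = 0.0108) and 0.67 (0.00647), and PCDHB9 was lost without PELP1-KD replicate 3 (0.46, adjusted p = 0.063).

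In all, 6 of the tested beta genes were not called. PCDHB11 had 114, 130 and 116 against 126, 141 and 157 normalised reads, and the groups overlapped (0.24, SE 0.12, adjusted p = 0.113). PCDHB12 had 53.2, 81.0 and 54.4 against 75.8, 92.6 and 82.7 (0.41, adjusted p = 0.06, and 0.0309 with the replicate block). PCDHB6, PCDHB15, PCDHB17 and PCDHB18 had group means between 12.9 and 38.1 and log2 fold changes from -0.05 to 0.63. Among the genes not tested, PCDHB1 had 0 reads in every library, which allows up to 3 reads in each, and PCDHB19P had 10.8 ± 2.23 against 6.72 ± 0.635 normalised reads, lower in all 3 libraries labelled PELP1-KD. Beta genes resemble each other closely, and 41 of the 114 beta values, in 14 of the 19 genes, were not whole numbers, since reads that matched several places were counted as fractions, so a part of each such value may belong to another copy.

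**Figure D1:**
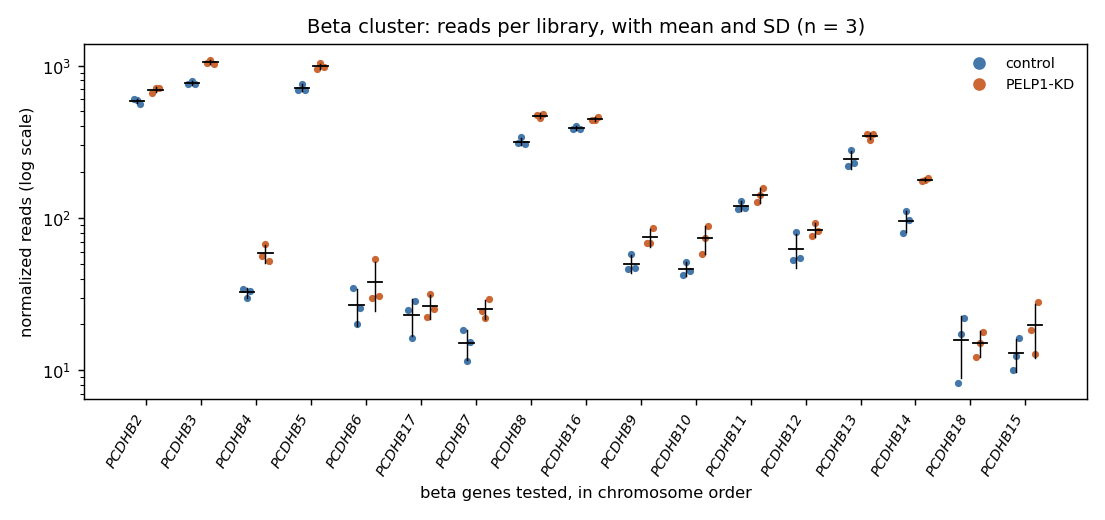
Normalised reads on a log axis for the 17 beta genes tested, in chromosome order, with 1 point per library, a bar at the mean and a line for the SD (n = 3, blue control, orange labelled PELP1-KD). PCDHB2, PCDHB3 and PCDHB5 lie highest, and in 11 genes every orange point lies above every blue point.

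Per length, the levels of the beta genes differed widely. Control means were 247 normalised reads per kb for PCDHB5, 243 for PCDHB3 and 215 for PCDHB2, then 117 for PCDHB8, 80.6 for PCDHB16 and 69.5 for PCDHB13, and below 40 for the others. The levels of PCDHB5 and PCDHB3 per kb differed by less than the spread of PCDHB5 between libraries. The 3 most abundant genes were thus the same in both groups, with 340, 333 and 255 normalised reads per kb in the libraries labelled PELP1-KD.

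In the alpha family, the deposited values of all 15 genes rested on the same reads. The lowest alpha value of a library was a whole number that 3 to 7 genes had in common (56, 38 and 45 reads in the controls; 54, 60 and 49 in the libraries labelled PELP1-KD), and 11 of the 15 genes lay within 10 reads of it. Reads in the shared exons had thus been counted in full for every gene of the family, and they made up a median of 96.6% of a deposited alpha value, with the lowest share, 27.1%, for PCDHA4. The lowest value was therefore taken as the reads of the shared exons, and what a gene had above it as the reads of its variable exon. This difference is a lower bound, because reads that span the junction fall in the shared part. Any variable exon reads of the lowest gene are taken off as well.

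PCDHA4 was the main alpha gene in these cells and rose. Its variable exon had 83, 74 and 76 reads in the controls and 145, 95 and 126 in the other group, or 76.1, 70.9 and 72.5 against 148, 111 and 126 normalised reads, with no overlap (log2 fold change 0.81, SE 0.14, adjusted p = 9.1e-05). On the deposited values, which hold the shared reads too, the fold change was 0.67 (SE 0.12, adjusted p = 6.08e-05). PCDHA4 gave 52.0% ± 3.38 of all variable exon reads of the family in the controls and 56.2% ± 3.33 in the libraries labelled PELP1-KD, which overlapped. PCDHA8 rose from 14, 11 and 11 to 13, 27 and 23 variable exon reads, with the lowest normalised value under the PELP1-KD label (13.3) just above the highest control (12.8; 0.97, SE 0.35, adjusted p = 0.0266), a call that was lost without PELP1-KD replicate 2 (0.68, adjusted p = 0.167), without control replicate 2 (adjusted p = 0.0738) or without control replicate 3 (adjusted p = 0.0709). PCDHA2, with 27, 29 and 30 against 37, 25 and 28 reads, and PCDHA3, with 17, 18 and 23 against 20, 13 and 21, overlapped between the groups and were not called (adjusted p = 0.446 and 0.881).

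The other 11 alpha variable exons had too few reads to test. PCDHA11 and PCDHA13 had 0 reads above the shared value in every library, and PCDHAC1 and PCDHAC2, the members nearest the shared exons, had 0 to 6. The 0 of PCDHA11 and PCDHA13 follows from the subtraction, since they held the lowest alpha value of each library. The shared exons themselves had 51.3, 36.4 and 42.9 normalised reads in the controls and 55.3, 70.0 and 48.9 in the other group, which overlapped (0.40, SE 0.21, adjusted p = 0.107). On the deposited values, PCDHA1, PCDHA4 and PCDHA8 were called higher (3 of 15, where 26.8% of all genes tested were) and the log2 fold changes of the 15 genes ran from 0.31 to 0.67 with a median of 0.42, but these are largely 1 measurement repeated. The call of PCDHA1 (0.49, adjusted p = 0.047) added 1, 0 and 0 against 8, 2 and 2 variable exon reads to that shared value, and it was lost with DESeq2 (0.105) and without PELP1-KD replicate 1 or 2 or control replicate 2 or 3 (adjusted p from 0.0954 to 0.183). The count of 3 alpha genes called was 1 without PELP1-KD replicate 2, control replicate 2 or control replicate 3, 5 without control replicate 1 and 9 without PELP1-KD replicate 3.

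In the gamma family none of the 22 tested genes was called on the deposited values, where log2 fold changes ran from -0.08 to 0.02 with a median of -0.05. The smallest adjusted p was 0.17, for PCDHGB4. Here the shared exons made up a median of 98.8% of a value and at least 62.4% (PCDHGB5), with the lowest value held by 1 or 2 genes and 8 to 12 genes within 10 reads of it. The level of the shared exons was 1254, 1182 and 1222 normalised reads in the controls against 1131, 1222 and 1172 (-0.05, SE 0.05, adjusted p = 0.386). With the shared part taken off, 14 gamma genes could be tested, of which 2 rose and 1 fell. In that fit 26.9% of 14520 genes were called higher and 26.8% lower. Of the 2 that rose, PCDHGB2 passed the filter on low counts only through the libraries labelled PELP1-KD.

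PCDHGB5 was the most abundant gamma gene and was not called. Its variable exon had 585, 619 and 609 normalised reads in the controls against 607, 629 and 705 (log2 fold change 0.10, 95% interval -0.04 to 0.24, adjusted p = 0.227). PCDHGA10, the next in level, rose from 211, 211 and 197 to 295, 258 and 259 with no overlap (0.39, SE 0.09, adjusted p = 0.00139). PCDHGC3 lay at 151, 182 and 160 against 188, 186 and 187, again with no overlap, but was not called (0.18, SE 0.10, adjusted p = 0.147). Gamma genes of the C type are known to be used more evenly across cells than the A and B types, and PCDHGC4 and PCDHGC5 had 0 to 2 variable exon reads here. The lowest gamma value of each library was that of PCDHGC4, PCDHGC5 or both, so a 0 there follows from the subtraction.

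PCDHGB4 and PCDHGB2 moved in opposite directions. PCDHGB4 fell from 51, 49 and 49 reads to 22, 8 and 30, and every library labelled PELP1-KD was below every control (log2 fold change -1.15, SE 0.28, adjusted p = 0.00187). PCDHGB2 rose from 11, 1 and 5 reads to 24, 18 and 14 (1.87, SE 0.48, adjusted p = 0.00275), a change that rests on few reads and ran from 1.39 without control replicate 2 to 2.73 without control replicate 1. It passed the filter on low counts only through the libraries labelled PELP1-KD, where it was higher. Its call is therefore no independent support for a rise. PCDHGB4 and PCDHGB2 were the members that passed 2-fold when the shared reads were left out, though PCDHGB4 did not without PELP1-KD replicate 2 (-0.83), and 2.85% of genes rose and 4.79% fell by that rule on the deposited values. PCDHGB5, which has the same 20 bases around the core as PCDHGB4, was not called, and a link between these bases and the RNA was not tested.

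The other 9 tested gamma variable exons were not called. PCDHGA7 had 63, 68 and 78 reads against 95, 80 and 71 (0.40, adjusted p = 0.0511), and PCDHGA9 28, 16 and 12 against 41, 29 and 15 (0.77, adjusted p = 0.0786). With the replicate block both were called (adjusted p = 0.0479 and 0.0261), which made 4 gamma genes higher. PCDHGA7 was also called without PELP1-KD replicate 3 (adjusted p = 0.0111) or control replicate 3 (0.0378), PCDHGA9 without PELP1-KD replicate 3 (0.00335) or control replicate 1 (0.0247), PCDHGB6 without PELP1-KD replicate 1 (0.0249) or control replicate 1 (0.0252), and PCDHGA1 without control replicate 3 (0.023). PCDHGA4 had 13, 8 and 14 against 17, 21 and 17 reads with no overlap (0.82, adjusted p = 0.0514). PCDHGA2 with 128, 112 and 124 against 91, 105 and 117 reads and PCDHGB1 with 107, 91 and 86 against 81, 74 and 79 had log2 fold changes of -0.05 and -0.11. PCDHGA1, PCDHGB3, PCDHGA6 and PCDHGB6 had group means of 6.55 to 35.0 normalised reads, overlapped between the groups and had log2 fold changes of 0.29 to 0.77. The 8 gamma genes with too few reads to test in this way, such as PCDHGA5 (7, 2 and 4 against 14, 7 and 8) and PCDHGA12 (1, 2 and 4 against 2, 2 and 0), and the pseudogene PCDHGB8P stayed at 14 variable exon reads or fewer.

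**Figure D2:**
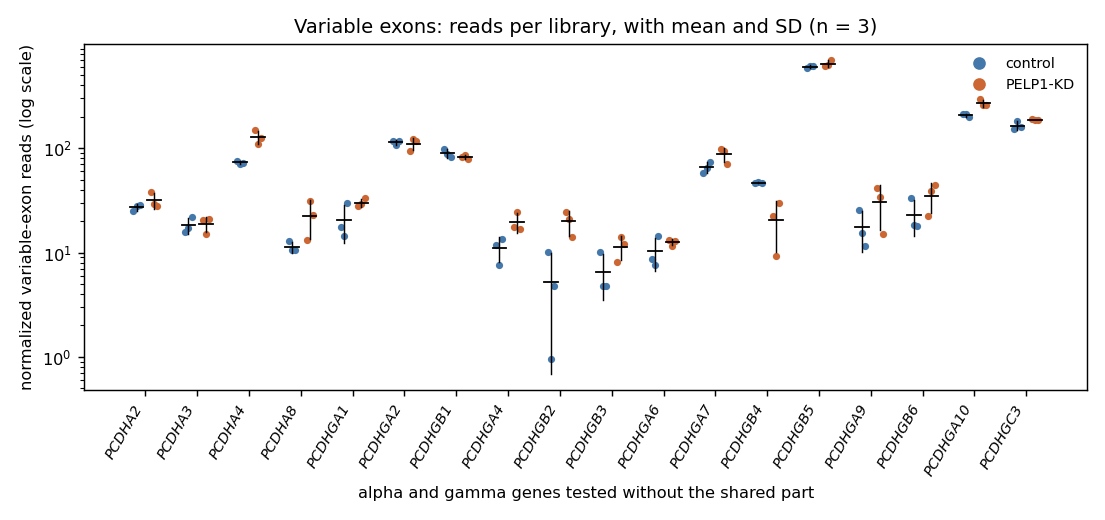
Normalised variable exon reads on a log axis for the 4 alpha and 14 gamma genes tested without the shared part, with 1 point per library, the mean and the SD (n = 3). PCDHA4 and PCDHGA10 lie higher and PCDHGB4 lower in all 3 libraries labelled PELP1-KD (orange) than in the controls (blue), while the points of PCDHGB5 overlap.

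Per length, the variable exon of PCDHGB5 (246 normalised reads per kb in the controls) was at the level of the most abundant beta genes. PCDHGA10 had 80.8, PCDHGC3 58.9 and PCDHA4 29.3 normalised reads per kb. Within gamma, PCDHGB5 gave 42.8% ± 1.30 of the variable exon reads in the controls and 40.4% ± 2.64 in the libraries labelled PELP1-KD, and PCDHGA10 14.6% ± 0.538 and 16.9% ± 1.46. PCDHB3 in beta, PCDHA4 in alpha and PCDHGB5 in gamma thus held the largest share of their family's reads in both groups.

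**Figure D3:**
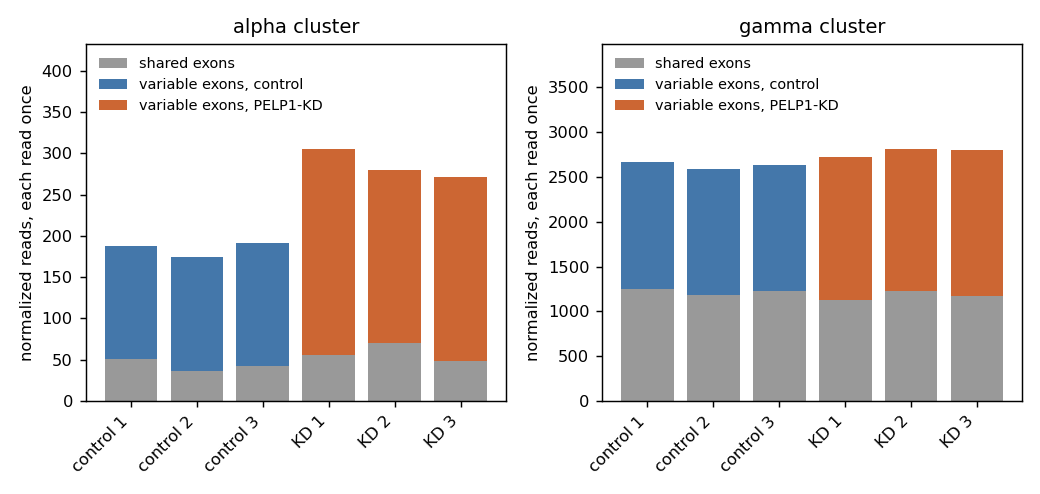
Normalised reads of the alpha (left) and gamma (right) family in each library, with every read counted 1 time, stacked as shared exons (grey) and the sum of the variable exons (blue control, orange labelled PELP1-KD). The alpha bars reach 174 to 191 in the controls and 272 to 305 in the libraries labelled PELP1-KD, and the grey part of the gamma bars lies between 1131 and 1254.

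With every read counted 1 time, each family as a whole lay higher in all 3 libraries labelled PELP1-KD than in the controls. Of all single genes tested, 29.6% did so too. Alpha rose from 184 ± 8.73 to 286 ± 17.4 normalised reads (SD, n = 3), a ratio of 1.55. The ratio was 1.34 for beta, from 3535 ± 163 to 4742 ± 116, and 1.05 for gamma, from 2634 ± 38.1 to 2776 ± 50.0. No test was made on these sums. The shared exons alone overlapped between the groups in alpha and in gamma and were not called (edgeR, adjusted p = 0.107 and 0.386). Summed as deposited, so that a shared read counts for every gene, the log2 ratio of gamma was -0.041 in place of 0.076, and that of alpha 0.47 in place of 0.63.

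**Figure D4:**
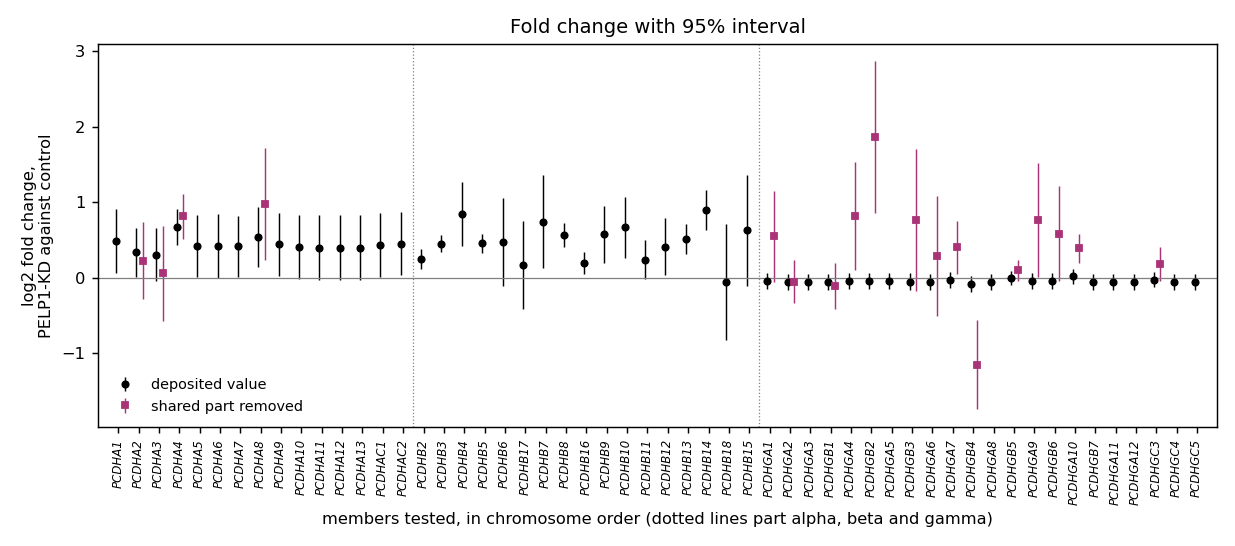
Log2 fold change with its 95% interval for the 54 tested members in chromosome order, on the deposited values (black circles) and, for alpha and gamma genes that could be tested so, with the shared part removed (purple squares). The black circles of gamma lie between -0.08 and 0.02, while the squares run from -1.15 (PCDHGB4) to 1.87 (PCDHGB2).

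Among the 12 non-clustered protocadherins, which lie outside these families, 3 of the 6 tested rose and none fell. Over all genes tested, 26.8% were called higher and 26.8% lower. The median log2 fold change of the 6 was 0.35. PCDH7 had 1440, 1485 and 1606 normalised reads in the controls and 3269, 3152 and 3260 in the other group (log2 fold change 1.10, SE 0.05, adjusted p = 1.27e-13). PCDH10 rose from 28.7 ± 8.10 to 60.2 ± 11.9 (1.08, SE 0.23, adjusted p = 0.000667), and PCDH17 from 280 ± 9.60 to 391 ± 17.6 (0.48, SE 0.08, adjusted p = 3.08e-05). Both PCDH7 and PCDH10 passed 2-fold, but PCDH10 did not without PELP1-KD replicate 3 or control replicate 1 (0.89 at the lowest). PCDH1, which lies 3' of the gamma family, had 18.3, 24.9 and 14.3 against 13.3, 22.2 and 24.0 normalised reads and was not called (0.04, SE 0.32, adjusted p = 0.919), and its sign turned without PELP1-KD replicate 2, PELP1-KD replicate 3 or control replicate 3, where it fell to -0.13 at the lowest.

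Of the 11 genes for CTCF, cohesin and its regulators, 2 rose and 3 fell, where 26.8% of all genes tested were higher and 26.8% lower. The median log2 fold change was -0.09. With the replicate block 2 rose and 8 fell, where 30.4% of all genes were called higher and 30.4% lower. PDS5B, a regulator of cohesin on chromatin, fell from 1433 ± 29.7 to 769 ± 82.6 normalised reads (-0.90, SE 0.06, adjusted p = 3.38e-10), and RAD21, a cohesin subunit, by 0.38 on the log2 scale (adjusted p = 2.66e-07). STAG1 fell by 0.14 (adjusted p = 0.0224). MAU2 and NIPBL, which load cohesin, rose by 0.26 (adjusted p = 7.25e-05) and 0.12 (0.0334). The call of STAG1 was lost without PELP1-KD replicate 2 (adjusted p = 0.0717), PELP1-KD replicate 3 (0.0546) or control replicate 1 (0.163), and that of NIPBL without PELP1-KD replicate 1 (0.171), PELP1-KD replicate 2 (0.0912), control replicate 2 (0.0505) or control replicate 3 (0.143). CTCF had 3147, 3093 and 3348 against 2951, 2917 and 3072 normalised reads, below the controls in all 3 libraries (-0.10, SE 0.04, adjusted p = 0.0531, and 0.00513 with the block), and was called without PELP1-KD replicate 3 (adjusted p = 0.011) or control replicate 2 (0.0494), with DESeq2 size factors in edgeR (0.0483) and with at least 10 reads in every library (0.0413).

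Of the 16 chromatin repressors and DNA methylation genes, 4 rose and 5 fell (7 with the replicate block), with a median of -0.05. Of all genes tested, 26.8% were higher and 26.8% lower (30.4% each with the block). DNMT1, which maintains DNA methylation, fell from 6578 ± 149 to 4947 ± 121 normalised reads (-0.41, SE 0.04, adjusted p = 1.19e-08), and its partner UHRF1 by 0.35 (adjusted p = 8.76e-07). SETDB1, a histone methyltransferase of silent chromatin, fell by 0.30 (adjusted p = 8.28e-05). DNMT3B, which sets new methylation, rose by 0.42 (adjusted p = 8.32e-08), SMCHD1 by 0.23 (0.000385) and ZNF274 by 0.20 (0.00181). EHMT2 also lies on alternative haplotypes of chromosome 6 in hg19, and its value is uncertain.

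Of the 19 genes for cytoplasmic partners and proteases of the protocadherins, 18 were tested, of which 6 rose and 7 fell (9 with the replicate block). Of all genes tested, 26.8% were higher and 26.8% lower (30.4% each with the block). The median of the 18 was -0.05. PDCD10 fell most, from 263 ± 6.26 to 41.4 ± 2.72 normalised reads (-2.67, SE 0.12, adjusted p = 5.85e-13). CYFIP2 and WASF1, members of the WAVE complex that steers actin, fell by 1.00 (adjusted p = 1.41e-07) and 0.38 (1.2e-05). The kinases PTK2B and FYN rose by 0.52 (adjusted p = 1.38e-06) and 0.40 (8.77e-05).

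Within 500 kb of the families lay 36 other genes, of which 28 were tested, with 10 higher, 2 lower and none past 2-fold, where 26.8% of all genes tested were higher and 26.8% lower. With the replicate block 14 were higher and 2 lower, where 30.4% of all genes were called higher and 30.4% lower. The median log2 fold change of these neighbours was 0.10. These counts repeat some reads. ANKHD1 and the joint entry ANKHD1-EIF4EBP3, both called higher, held nearly the same reads, and MIR3655 (not called) lies within IK. The nearest tested gene before alpha, ZMAT2, was not called (0.09, adjusted p = 0.0705, and 0.0446 without control replicate 3; 0.0137 with the replicate block), and the nearest after gamma, DIAPH1, rose by 0.15 (adjusted p = 0.000744). TAF7, between beta and gamma on the opposite strand, fell by 0.14 (adjusted p = 0.00702).

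Markers of hepatocytes were abundant and moved between the groups. All 8 were tested, 2 rose (AFP by 0.62 and FGB by 0.17) and 6 fell (among them ALB by 0.61). Of all genes tested, 26.8% were called higher and 26.8% lower. The sum of the 8 was 859063 to 873568 normalised reads in the controls and 754609 to 771242 in the libraries labelled PELP1-KD. Of 8 neural markers, RBFOX3, ELAVL3 and NEFL had 0 reads in every library, 2 rose and 2 fell (MAP2 by 1.83). The sum was 5590 to 5929 in the controls and 5979 to 6388 in the other group. Most of it was TUBB3 alone (means 5032 and 5475). The 5 fibroblast markers summed to 1287 to 1316 against 1921 to 1967, with COL1A1 up by 1.44 and PDGFRB down by 2.13 and DCN at 0 to 4 reads. COL1A2 (means 740 and 1055) and LUM (339 and 640) made up most of that sum. Endothelial markers summed to 63.0 to 72.8 against 60.7 to 67.6, with CDH5 and KDR at 0. Leukocyte markers summed to 1460 to 1640 against 1945 to 2091, most of it CD68 alone (means 1381 and 1927). CD68 was up by 0.48 and CD14 down by 0.98, with PTPRC at 0 to 5 reads and CD3E at 0 to 2. The part of these shifts in the values of the protocadherins was not tested.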

How the data were processed

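Hep3B RNA-seq libraries, 3 per group, were grouped by their labels. The authors deposited estimated counts per gene and library, without normalization. The file headers give featureCounts 1.5.0-p1, counting by strand on exons of hg19 by gene, a mapping quality of at least 2, and reads that match several places or several genes kept. The paper's methods name TopHat2 and HTSeq and the submitters' processing notes bcl2fastq, HISAT2, SAMtools and featureCounts, and the labels conflict on the library kit. Reads that matched several places were counted as fractions, while reads in the shared exons of alpha or gamma genes were found to be counted in full for every gene.

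Counts were rounded and tested with edgeR 4.0.16 (R 4.3.3; TMM, filterByExpr, robust quasi-likelihood test, Benjamini-Hochberg adjustment over 14537 genes). A gene was called at an adjusted p below 0.05. Normalised reads are counts scaled by TMM to the mean library. For the variable exons, the lowest value of any of the 15 alpha genes, and of the 22 gamma genes other than PCDHGB8P, which has no shared exon, was subtracted in each library from those genes, and the shared exons were entered as a gene of their own. Summing a family as planned would have counted shared reads repeatedly, so they were counted 1 time. DESeq2 1.42.0, other filters and size factors, leaving out each library and the replicate block were alternatives. On simulated counts for this comparison edgeR called 41 of 49 genes changed by 0.5 on the log2 scale, 46 of 50 changed by 1, and 11 of 14233 unchanged genes. The simulation changed few genes, pooled all levels of expression and drew libraries independently. Its rates need not hold for these data or for members with few reads.

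Libraries with the same replicate number deviated together (correlations 0.336, 0.247 and 0.666 over 6370 genes). The numbers were therefore used as a block in an alternative fit, while the main fit compared the groups without pairing. Control 2 with PELP1-KD 1 (0.418) and control 1 with PELP1-KD 2 (0.244) correlated about as well, so that the third pair alone stands apart. Replicates differed by more than counting noise (chi-square per degree of freedom 1.92 to 6.76). Members and lists were chosen with earlier results of these data known. Named with values were members with at least 100 normalised reads, members past 2-fold and the smallest p of each family; of the other lists, genes past 2-fold and the 3 smallest p-values in each direction, CTCF, SMCHD1 and PCDH1; and the nearest neighbours. All 22 tested gamma genes pass 100 reads through the shared exons and are given by their variable exons, and genes of the marker lists mostly by counts. A further gene that this rule would name is not reported here. The limit given for a count of 0 covers counting error only. Sequences are from GRCh37, whose chromosome 5 matches hg19.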

Additional observations from a re-analysis of the deposited data

How the results depend on the processing

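The count of alpha genes called higher on the deposited values, 3, ranged from 1 to 9 when each library was left out, and the count over all members from 10 to 17. For the variable exons, the count of alpha genes called higher ranged from 1 to 2 and that of gamma genes from 2 to 4 when each library was left out, and the gamma count was 4 with the replicate block and 4 with no filter on low counts. Removing the shared part turned the gamma counts from 0 to 2 higher and from 0 to 1 lower, and the count lower over all members to 1, since the reads common to all genes no longer enter. Summing the deposited values moved the log2 ratio of alpha to 0.47 and of gamma to -0.041, for the same reason. Without the shared part the sign turned from negative to positive for PCDHGA1 (0.55), PCDHGA4 (0.82), PCDHGA6 (0.29), PCDHGA7 (0.40), PCDHGA9 (0.77), PCDHGB2 (1.87), PCDHGB3 (0.77), PCDHGB5 (0.10), PCDHGB6 (0.59) and PCDHGC3 (0.18). PCDHGB5 also turned, at values near 0, with no filter (0.0014) and between -0.024 and 0.032 over the libraries left out. PCDH1 ranged from -0.13 to 0.27, and the variable exons of PCDHA3 from -0.043 to 0.21 and of PCDHGA2 from -0.12 to 0.064, when each library was left out, and the cause was not tested. The replicate block called 15 of the 54 tested members higher, where 30.4% of all genes were called higher. Without the block 14 were called, where 26.8% of all genes were. The 11 genes called higher in beta were 8 to 11 without a library. Depth limits most alpha variable exons, 11 of 15 of which could not be tested.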
